A study of Mus musculus with 10 samples.

Results

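The SALL family of mouse consists of Sall1, Sall2, Sall3 and Sall4, and all 4 were measured here in embryonic limb buds with and without Dicer, among 18193 genes that the array names by a single symbol. The members were taken as every probe set annotated to exactly 1 of these genes, which gave 2 each for Sall1, Sall3 and Sall4 and 1 for Sall2. In GRCm38.p6 coordinates of RefSeq, Sall4 (gene ID 99377) lies on chromosome 2 from 168748332 to 168767201 and Sall1 (58198) on chromosome 8 from 89027242 to 89044162. Sall2 (50524) lies on chromosome 14 from 52311177 to 52328670, and Sall3 (20689) on chromosome 18 from 80966989 to 80987021.

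The Dicer mutant group held 5 arrays labelled mutant, numbered 1 to 5, and the wild type group 5 arrays with the same numbers. Both came from 1 kind of cross: a parent with 1 floxed Dicer allele and the prxcre driver was mated to a parent with both Dicer alleles floxed, so a floxed allele is present in embryos of either group. Cre from prxcre acts in limb mesenchyme, and by what is known of the driver the ectoderm, migrated muscle precursors, vessels and blood of the limb bud keep Dicer. Embryos heterozygous for the deletion were also genotyped, and the sources used here do not say whether any stand in the wild type group. They also do not give stage, strain, limb type (fore or hind) or the number of embryos per array, so p-values measure only the spread between these arrays.

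SALL proteins are nuclear zinc finger transcription factors named after the spalt gene of Drosophila. They carry pairs of zinc fingers along the protein, and most members bind the NuRD corepressor complex through a short motif at their N terminus. In limb buds, Sall4 is switched on early downstream of the T-box factor TBX5, works with Gli3 and Plzf (Zbtb16) in early skeletal patterning, and its human counterpart is mutated in Okihiro (Duane-radial ray) syndrome. Sall1, mutated in human Townes-Brocks syndrome, and Sall3 are expressed in distal limb mesenchyme and share functions there. Dicer cuts precursor hairpins into mature microRNAs, so its removal takes most microRNAs from the cells that lose it.

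Signals below are the linear intensities deposited for each array, which have no absolute unit and cannot be compared between probe sets. Array medians lay between 146 and 153. A probe set was tested when its mean log2 signal over all 10 arrays reached the median of all probe sets, a signal of about 151. Of the 7 Sall probe sets, 5 passed and 2 did not, 1424153_s_at of Sall4 and 1441186_at of Sall3. These 2 are given from a fit without the filter, and their distance from background is unknown. The limb mesenchyme markers, such as Prrx1, Twist1 and Msx1, all passed (16 of 16).

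At Dicer1, the deleted gene, number 2 ran against its labels in both groups. Dicer1 at 1427941_at had 226, 360, 221, 215 and 205 in mutant arrays 1 to 5, against 425, 233, 372, 390 and 706 in wild type arrays 1 to 5. The array labelled mutant 2 thus lay close to the wild type level, and the array labelled wild type 2 lay close to the mutant level. The sources used here do not place the probes relative to the deleted part of Dicer1, so what the probe set checks is uncertain. Results are given for the 10 arrays as labelled and for the 8 arrays without number 2. The choice of those 8 was made with the Dicer1 values known, and no p-value from them is corrected for it.

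Sall4 stood higher in mutant than in wild type limb buds in 4 of 5 same-numbered pairs of arrays, and lower in pair 2. At 1424152_at the signals were 358, 108, 381, 284 and 396 in mutant arrays 1 to 5, against 222, 291, 151, 185 and 247 in wild type arrays 1 to 5. With the arrays numbered 2 set aside, every mutant array lay above every wild type array. The array labelled mutant 2 had the lowest Sall4 signal of all 10, and the array labelled wild type 2 had the highest of its group. The mutant over wild type ratio was 1.61 in number 1, 2.52 in number 3, 1.53 in number 4 and 1.61 in number 5, against 0.372 in number 2.

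The second Sall4 probe set, 1424153_s_at, separated the groups in the same way outside number 2, although the order of arrays within each group differed. It had 129, 56.5, 124, 107 and 102 in mutant arrays 1 to 5, against 84.5, 103, 65.2, 73.8 and 73.0 in wild type arrays 1 to 5. Mutant 2 was again the lowest array and wild type 2 the highest of its group. Both probe sets are annotated from the same transcript accession, so they do not count as independent measurements, and all of the signals of the second lay under the level of the filter.

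**Figure D1:**
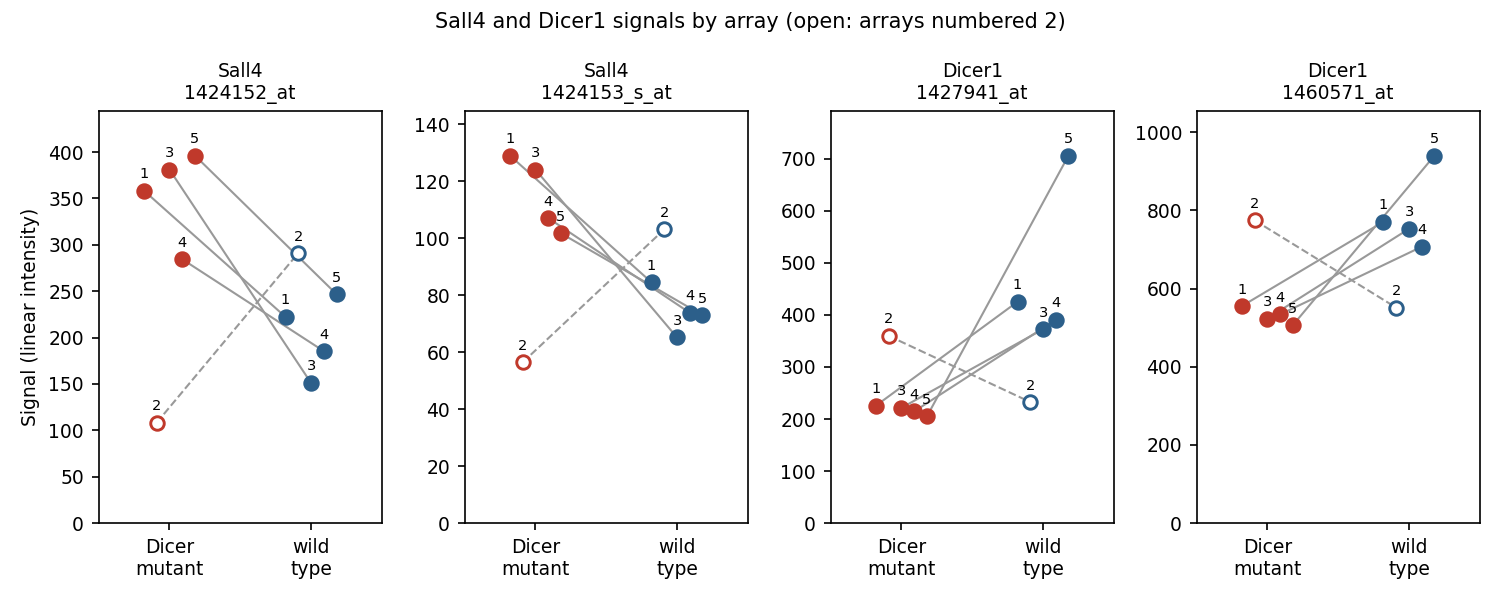
Linear signal (y axis, from 0) of both Sall4 and both Dicer1 probe sets in each array, mutant at left and wild type at right. Points carry the array number, lines join arrays of 1 number, and open points with dashed lines are the arrays numbered 2. Sall4 runs downward and Dicer1 upward from mutant to wild type in numbers 1, 3, 4 and 5, and both run the other way in number 2.

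With the 10 arrays as labelled no Sall gene passed the test. Limma called 0 of the 5 tested Sall probe sets, on a background of 0% called (0 of 22519 at a Benjamini-Hochberg adjusted p below 0.05, with 632 at an unadjusted p below 0.05). Sall4 at 1424152_at averaged 306 ± 118 in mutant and 219 ± 54.1 in wild type arrays (SD, n = 5 each). Its log2 fold change was 0.38 (SE 0.32, limma adjusted p = 1.00, exact two-sided permutation p = 0.357). The SD of log2 values was 0.78 in the mutant group and 0.37 in the wild type group. Leaving out mutant 2 alone moved the log2 fold change to 0.72 (SE 0.18, limma adjusted p = 0.477).

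In the 8 arrays Sall4 was the only Sall gene called, and it rose 1.78-fold. The mean signal was 355 ± 49.5 in mutant arrays and 201 ± 41.9 in wild type arrays (SD, n = 4 each), with a log2 fold change of 0.83 (SE 0.16, limma adjusted p = 0.0408). The exact two-sided permutation test gave p = 0.0286, the smallest that 4 against 4 arrays allow. Thus 1 of 5 tested Sall probe sets was called, where 1.68% of all 22519 probe sets were called in either direction and 0.928% were called as higher. The share of all probe sets with every mutant array above every wild type array was 4.12%. Of all tested probe sets 54 had a log2 fold change at least as large as that of Sall4. The second Sall4 probe set had a log2 fold change of 0.64 (SE 0.10, limma adjusted p = 0.0285 among all probe sets without the filter).

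The call of Sall4 was close to the threshold. Without the filter the adjusted p at 1424152_at was 0.0538. Leaving out single arrays of the 8 gave log2 fold changes of 0.70 to 0.94, and the call held without wild type 5 only (limma adjusted p = 0.0223). Without wild type 1, 3 or 4, or mutant 1, 3, 4 or 5, limma's adjusted p lay between 0.0545 and 0.127. With the replicate number as a block, where 5.41% of probe sets were called, Sall4 had a limma adjusted p of 0.0192. Numbers 1 and 3 alone gave 1.01 (SE 0.17, limma adjusted p = 0.0309) and numbers 4 and 5 alone 0.65 (SE 0.21, limma adjusted p = 0.481).

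Sall1 did not pass the test in either set of arrays, and its spread among wild type arrays was wide. At 1437983_at the mutant arrays 1 to 5 had 1290, 697, 1526, 1161 and 1396, against 1180, 1172, 838, 807 and 1926 in wild type arrays 1 to 5. The groups overlapped: wild type 5 had the highest signal of all 10 arrays, mutant 2 had the lowest, and wild type 1 and 2 lay just above mutant 4. At the second probe set, 1450489_at, wild type 5 again stood highest at 408 and mutant 2 lowest at 188, with 274 to 332 in the other mutant arrays and 218 to 270 in the other wild type arrays.

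The log2 fold change of Sall1 in the 8 arrays was 0.26 (SE 0.25, limma adjusted p = 0.795) at 1437983_at and 0.15 (SE 0.18, limma adjusted p = 0.862) at 1450489_at. In the 10 arrays it was 0.061 (SE 0.26, limma adjusted p = 1.00) and 0.019 (SE 0.19, limma adjusted p = 1.00). The SD of log2 values at 1437983_at was 0.17 in the 4 mutant arrays and 0.58 in the 4 wild type arrays. Among those wild type arrays 98.9% of tested probe sets had a lower SD. Without wild type 5 the values became 0.53 (SE 0.15, limma adjusted p = 0.111) and 0.34 (SE 0.10, limma adjusted p = 0.124). Without wild type 3 they became 0.13 and 0.039, and without wild type 4 they became 0.11 and 0.065, so the size depended on several wild type arrays.

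Sall3 resembled Sall1 array by array and was not called with all 8 or all 10 arrays. At 1452386_at it had 270, 151, 342, 199 and 238 in mutant arrays 1 to 5, against 211, 190, 188, 187 and 355 in wild type arrays 1 to 5. Wild type 5 was again the highest array and mutant 2 the lowest, and the other wild type arrays lay within 187 to 211. Its log2 fold change was 0.18 in the 8 arrays (SE 0.23, limma adjusted p = 0.865) and 0.079 in the 10 arrays (SE 0.23, limma adjusted p = 1.00).

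Sall3 depended on which numbers were used. Numbers 1 and 3 alone gave 0.61 (SE 0.13, limma adjusted p = 0.0497), and numbers 4 and 5 alone gave -0.25 (SE 0.31, limma adjusted p = 0.833). The difference between these was not tested. With single arrays of the 8 left out the value ran from 0.045 without mutant 3 to 0.40 without wild type 5 (SE 0.17, limma adjusted p = 0.285), with 0.092 without wild type 3 and 0.090 without wild type 4. The dim probe set 1441186_at ran from 55.8 to 89.9 in mutant arrays and from 59.6 to 75.5 in wild type arrays, and had 0.25 (SE 0.11, limma adjusted p = 0.512 without the filter) in the 8 arrays.

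**Figure D2:**
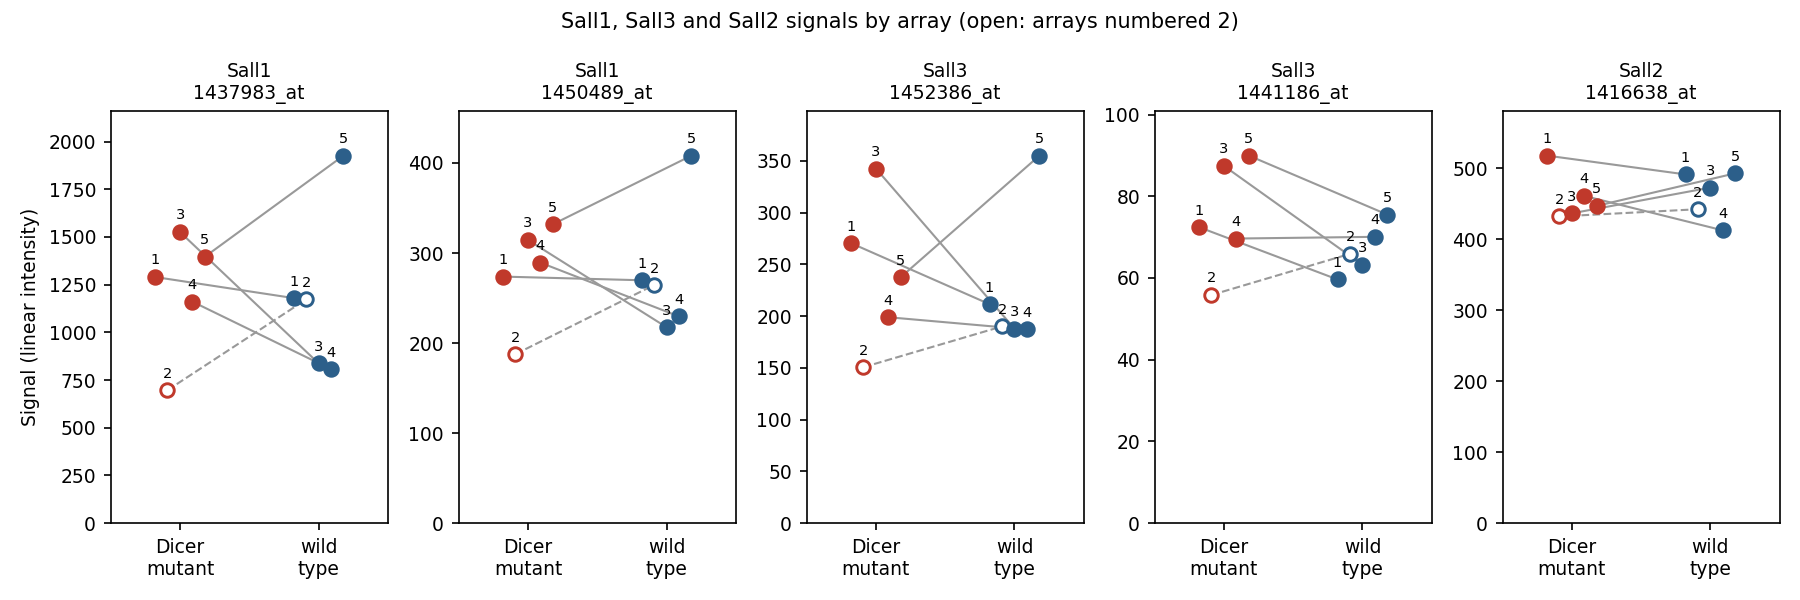
Linear signal (y axis, from 0) of the Sall1, Sall3 and Sall2 probe sets in each array, mutant at left and wild type at right, with the array number at each point and lines joining arrays of 1 number. Wild type 5 stands highest and mutant 2 lowest at both Sall1 probe sets and at 1452386_at of Sall3, while Sall2 stays between 413 and 518 in all arrays.

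Sall2 was the steady member. The mutant arrays 1 to 5 had 518, 432, 437, 461 and 447, against 491, 442, 473, 413 and 493 in wild type arrays 1 to 5. All 10 arrays lay within this narrow range and the groups overlapped fully. The mean was 466 ± 36.2 in mutant and 467 ± 37.7 in wild type arrays (SD, n = 4 each), with a log2 fold change of -0.0050 (SE 0.091, limma adjusted p = 0.996) in the 8 arrays. Its SD of log2 values over the 10 arrays was 0.10, above that of 21.2% of tested probe sets. The same measure was 0.61 for Sall4, 0.45 for Sall1 and 0.40 for Sall3, above that of 99.4%, 97.9% and 96.5% of tested probe sets.

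**Figure D3:**
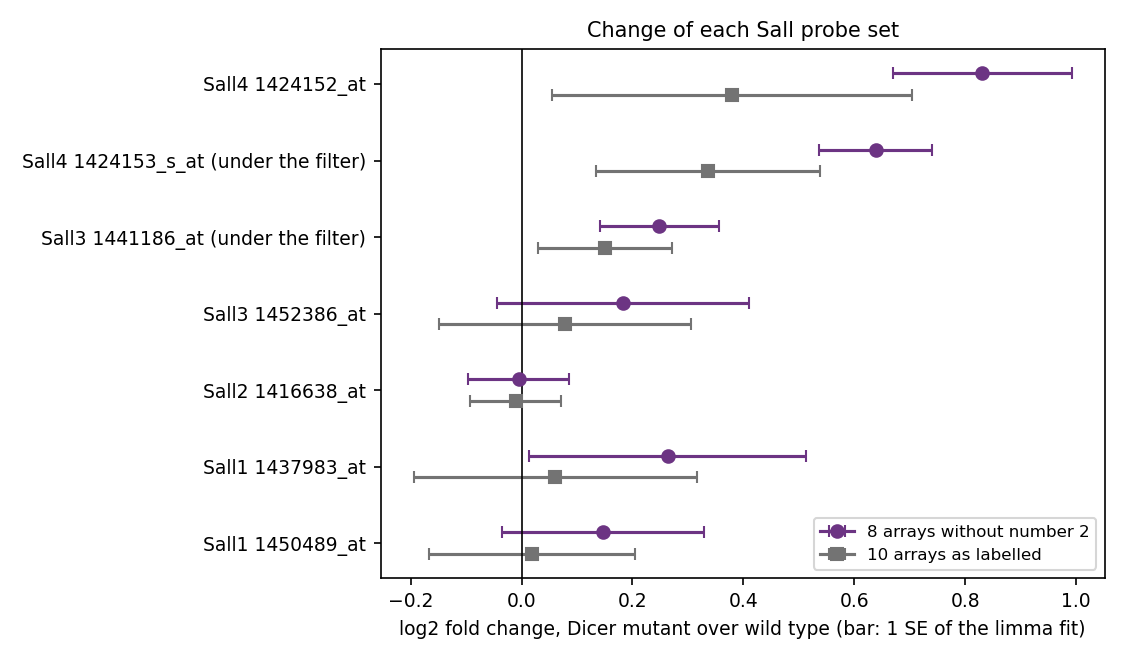
Log2 fold change of mutant over wild type (x axis, bars are 1 SE of the limma fit) for each of the 7 Sall probe sets, in the 8 arrays without number 2 (circles) and in the 10 arrays as labelled (squares). Both Sall4 probe sets stand furthest right in the 8 arrays, at 0.83 and 0.64, and Sall2 lies at 0.

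Whether Sall4 changed more than its relatives was tested on the difference of their log2 signals within each array, over all 6 pairs of members. In the 8 arrays Sall4 rose by 0.84 more than Sall2 (SE 0.19), by 0.65 more than Sall3 (SE 0.18) and by 0.57 more than Sall1 (SE 0.18). In each of these 3 pairs every mutant array lay above every wild type array, and the exact two-sided permutation p was 0.0286, the smallest possible. Adjusted over the 6 pairs it was 0.0571 for each. With only these 3 pairs at the smallest possible p the adjusted value cannot be lower. A change of Sall4 alone therefore could not pass this correction, whatever its size. The other 3 pairs ran from -0.27 (Sall2 minus Sall1, SE 0.28) to 0.19 (Sall3 minus Sall2, SE 0.26), with exact permutation p-values of 0.343 to 0.543. Without wild type 5, Sall2 minus Sall1 was -0.51 (SE 0.18, exact permutation p = 0.0286, adjusted 0.0571 over the 6 pairs), with no overlap of the groups. With single arrays of the 8 left out that pair ran from -0.51 to -0.12, Sall3 minus Sall2 from 0.020 to 0.38 and Sall3 minus Sall1 from -0.15 to -0.018. With the 10 arrays as labelled the Sall4 differences were 0.39, 0.30 and 0.32 against Sall2, Sall3 and Sall1, with exact permutation p-values of 0.310, 0.317 and 0.206.

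The start regions of Sall1 and Sall2 are shown because their most upstream windows differ in composition. Any link to the spread of the 2 genes between arrays was not tested. RefSeq windows were looked up for Sall1, Sall2 and Sall4 but not for Sall3. They were found for Sall1 and Sall2 only. For each of these 2 genes, the 250 bases before the most upstream annotated start are printed. They run 5′ to 3′ on the minus strand of GRCm38.p6, with CG dinucleotides in capitals.
Sall1, chr8:89044163-89044412: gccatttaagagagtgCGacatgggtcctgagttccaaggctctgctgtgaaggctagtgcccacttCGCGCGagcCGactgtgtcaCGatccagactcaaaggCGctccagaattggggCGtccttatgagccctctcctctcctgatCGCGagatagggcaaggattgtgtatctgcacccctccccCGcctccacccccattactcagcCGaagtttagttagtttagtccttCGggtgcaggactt
Sall2, chr14:52328671-52328920: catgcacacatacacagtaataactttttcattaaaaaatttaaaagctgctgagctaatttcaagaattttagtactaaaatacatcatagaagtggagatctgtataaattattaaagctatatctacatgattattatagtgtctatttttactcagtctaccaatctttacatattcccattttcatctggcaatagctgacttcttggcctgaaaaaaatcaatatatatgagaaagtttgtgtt

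The Sall1 window held 13 CG dinucleotides at 56.4% GC, and the windows before its other 2 annotated starts held 25 and 30, at 74.4% and 78.4% GC. The Sall2 window held 0 at 28% GC. The window before its other start held 6 at 64.4% GC, a higher GC share than that of the Sall1 window printed. The median of 32841 such windows over all genes was 6, at 52.4% GC. The GLI core motif GACCACCCA was searched on both strands because the hedgehog target Ptch1 was the gene that followed Sall1 most closely over the arrays. It was in none of the 5 windows of the 2 genes and in 0.225% of all windows. Of other motifs, the GC box GGGCGG occurred 4 times and 1 time in the Sall1 windows of starts 2 and 3 and in 32.8% of all windows, and the TATA box TATAAA 1 time in the Sall2 window printed and in 12.4% of all windows. The E-box CANNTG was in both Sall2 windows (1 and 2 matches), in none of the 3 Sall1 windows and in 66.2% of all windows. These matches describe the letters of the windows only.

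The genes whose log2 signals followed each member most closely over the 10 arrays were taken by Pearson's r among 11601 genes with 1 probe set each. For Sall1 they were Ptch1 (r = 0.97), which encodes the hedgehog receptor and is itself a hedgehog target, Tiam1 (0.96), a Rac exchange factor, Fgf8 (0.95), the main signal of the apical ectodermal ridge, Lmo2 (0.95) and Grem1 (0.95), the BMP antagonist that maintains the ridge. Ptch1 had 1840, 1107, 2134, 1631 and 2014 in mutant arrays 1 to 5, against 1628, 1457, 1156, 1340 and 2534 in wild type arrays 1 to 5. As for Sall1, wild type 5 was the highest array and mutant 2 the lowest. Fgf8 and Grem1 had the same highest and lowest arrays. None of the 5 was called in the 8 arrays, with log2 fold changes of 0.12 to 0.48.

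Genes most like Sall3 were Fxyd5 (r = 0.97), the forkhead gene Foxf1 (0.95), the p38 kinase gene Mapk11 (0.95), Ust (0.95) and the Notch target Hey1 (0.93). Wild type 5 and mutant 3 were the 2 highest arrays for each of these 5, as for Sall3 at 1452386_at. Genes most like Sall4 were Stk24 (0.98), Dtl (0.97), a DCAF subunit of the CUL4 ubiquitin ligase active in DNA replication, the glycine cleavage gene Gldc (0.97), the let-7 target Igf2bp1 (0.97) and Kank2 (0.96). Of these, Igf2bp1 was called in the 8 arrays (log2 fold change 0.41, SE 0.079, limma adjusted p = 0.0385). It had 1476, 715, 1630, 1418 and 1612 in mutant arrays 1 to 5, against 1232, 1476, 1065, 1120 and 1186 in wild type arrays 1 to 5, so that mutant 2 was its lowest array by far. Each list is the top 5 of 11601 genes, and all values come from the same 10 arrays, so these correlations are descriptions only.

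**Figure D4:**
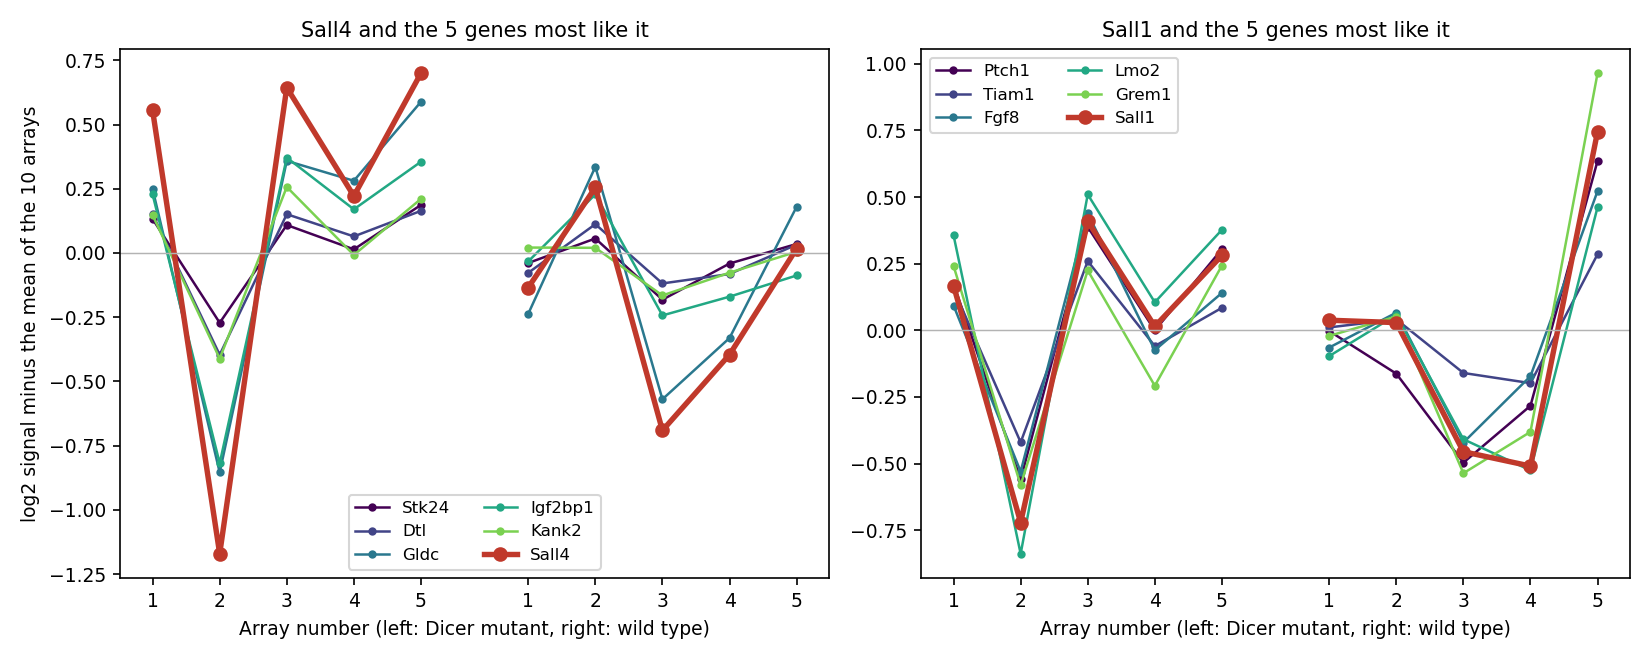
Log2 signal of each array minus the mean of the 10 arrays (y axis) for Sall4 (left panel) and Sall1 (right panel) in bold and the 5 genes most like each, by array number (x axis), mutant arrays at left and wild type arrays at right in each panel. Lines only join the values of 1 gene. Sall4 and its 5 genes are lowest in mutant 2, and Sall1 and its 5 genes are lowest in mutant 2 and, except Lmo2, highest in wild type 5.

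Limb patterning genes that act around the SALL factors were examined as a list, in which 23 of 25 passed the filter. In the 8 arrays 0 were called, with 2 at an unadjusted p below 0.05, and 18 of the 23 had positive log2 fold changes. Their median was 0.12, beside -0.013 for all 11601 genes, of which 246 (2.12%) were called, 126 higher (1.09%) and 120 lower (1.03%). Of all 11601 genes, 1672 had an unadjusted p below 0.05 and 5286 had positive log2 fold changes. Tbx4, the hindlimb T-box gene, had the smallest p, with 298, 214, 320, 208 and 220 in mutant arrays 1 to 5, against 192, 273, 205, 137 and 160 in wild type arrays 1 to 5. Its log2 fold change was 0.58 (SE 0.17, limma adjusted p = 0.157; 0.00705 with the replicate number as a block). Zbtb16, a partner of Sall4 in the limb, followed with 0.48 (SE 0.17, limma adjusted p = 0.245; 0.0338 with the block).

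In the 10 arrays 0 members of any list described here were called. Wild type 5 also moved the limb patterning list. Without it 3.31% of all probe sets were called, against 1.68% with it, and 2 members of the list were called, Zbtb16 at 0.65 (SE 0.098, limma adjusted p = 0.0169) and Shh, the hedgehog ligand, at 1.24 (SE 0.21, limma adjusted p = 0.0233). Shh was named after its values were seen. It had 256, 83.7, 343, 237 and 393 in mutant arrays 1 to 5, against 147, 134, 98.0, 142 and 412 in wild type arrays 1 to 5. Wild type 5 was thus the highest array for Shh as for Sall1, Sall3 at 1452386_at, Ptch1, Fgf8 and Grem1, and mutant 2 was the lowest for all of them. Tbx5, which acts upstream of Sall4 in the forelimb, had -0.21 (SE 0.14, limma adjusted p = 0.649) in the 8 arrays.

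Genes of the NuRD complex and of the cereblon ubiquitin ligase had no called member in the 8 arrays. Of 15 tested NuRD genes 0 were called, with 3 at an unadjusted p below 0.05 (1672 of all 11601 genes) and a median of 0.060. Rbbp7, a histone-binding subunit, had 0.20 (SE 0.058, limma adjusted p = 0.153; 0.0438 with the block), and Mta3 had 0.20 (SE 0.071, limma adjusted p = 0.242). Of 6 genes of the cereblon ubiquitin ligase, which degrades SALL4 in the presence of thalidomide in human cells, 0 were called and 1 had an unadjusted p below 0.05. The leading values there were 0.15 for Cul4b (SE 0.061, limma adjusted p = 0.334) and -0.29 for Dda1 (SE 0.13, limma adjusted p = 0.396).

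Among known targets of the microRNA let-7 in the embryo, a list chosen with earlier results of these data known, 4 of 16 tested genes were called in the 8 arrays, all higher, at a median of 0.20, where 1.09% of all genes were called as higher. Trim71, an RNA-binding ubiquitin ligase, had 428, 112, 450, 359 and 483 in mutant arrays 1 to 5, against 172, 367, 130, 153 and 184 in wild type arrays 1 to 5. This is the order of groups seen for Sall4, number 2 included. Its log2 fold change was 1.43 (SE 0.13, limma adjusted p = 0.00118). Fign, which encodes fidgetin, had 0.83 (SE 0.10, limma adjusted p = 0.00774), and E2f5, which encodes an E2F cell cycle factor, had 0.41 (SE 0.077, limma adjusted p = 0.0349), beside Igf2bp1 above. Trim71 and Fign kept their calls without each of the 8 arrays in turn, E2f5 in 2 of the 8 fits and Igf2bp1 in 1. With the replicate number as a block Thbs1, the thrombospondin gene of the list, was also called, as lower (-0.50, limma adjusted p = 0.0145, against 0.0665 without the block), where 6.43% of all genes were called. Thbs1 was named after its values were seen.

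Sall4 is also a gene of pluripotent and germ cells, and markers of those cells were mostly dim. Of 19 on the array 15 lay under the filter, Pou5f1, Sox2 and Nanog among them with geometric mean signals of 98.8, 54.3 and 29.9 over the 10 arrays. Of the other 4, 0 were called and 2 had an unadjusted p below 0.05, beside 1672 of all 11601 genes. These were Kit at -0.17 (SE 0.073, limma adjusted p = 0.375) and Klf2 at 0.16 (SE 0.068, limma adjusted p = 0.386). The summed signal of all 19 ran from 1726 to 1802 in the 4 mutant arrays and from 1748 to 1849 in the 4 wild type arrays, and none was at 0. Most of that sum comes from probe sets under the filter, and the part of such cells in the Sall4 result was not tested. Of 6 tested kidney development genes often studied with Sall1, 0 were called, with 0 at an unadjusted p below 0.05 and a median of -0.079. Osr1 had -0.37 (SE 0.21, limma adjusted p = 0.547) and Wnt4 -0.12 (SE 0.12, limma adjusted p = 0.814).

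Limb buds are mixed tissue, and in such bulk samples more cells of a type and more RNA per cell cannot be told apart. Markers of surface ectoderm and its ridge had 0 of 12 called, and their summed signal ran from 4077 to 4596 in the 4 mutant arrays and from 4088 to 4548 in the 4 wild type arrays. The ectoderm sum of wild type 5 (4492) is itself part of the wild type range, so that range cannot show whether it stood apart. In wild type 5, Fgf8 (254), Cdh1 (657), Trp63 (609) and Grhl3 (222) of this list had their highest signal of all arrays. Krt5 (534) and Krt15 (75.5) had their lowest there, and the other members had neither. The part of ectoderm in the Sall1 and Sall3 values was not tested. White blood cell markers had 0 of 6 tested called, with 3 at an unadjusted p below 0.05, 5 above 0 and a median log2 fold change of 0.18. Their sums ran from 2460 to 2840 in mutant and 2257 to 2493 in wild type arrays. The array labelled wild type 2 had the highest sum of all (3326). Nothing was at 0 in either list. With the replicate number as a block 3 members of these 2 lists were called, where 6.43% of all genes were, the ectodermal keratin Krt14 (-0.39, limma adjusted p = 0.0435, against 0.595 without the block) and the white blood cell genes Ctss (0.43, limma adjusted p = 0.0197, against 0.0773) and Tyrobp (0.49, limma adjusted p = 0.0164, against 0.223). The white blood cell sums of mutant and wild type arrays overlapped. Within numbers 1, 3, 4 and 5 the mutant sum was the higher, at 2752, 2754, 2840 and 2460 against 2348, 2392, 2493 and 2257. Mutant 2 was low (2282) and wild type 2 high as for Sall4, and the part of these cells in the Sall4 result was not tested. Endothelial (0 of 8), muscle (0 of 8) and red cell markers (0 of 7) had no called member. Limb mesenchyme markers had 0 of 16 called in the 8 arrays, with 3 at an unadjusted p below 0.05 (1672 of all 11601 genes) and a median log2 fold change of -0.0037. With the block, Tbx4 (given above) and Pdgfra of that list were called. Pdgfra had 0.20 (SE 0.075, limma adjusted p = 0.271 without the block and 0.0480 with it). The muscle sum ran from 2364 to 4718 in the 4 mutant and from 2353 to 6325 in the 4 wild type arrays. The endothelial sum was highest in wild type 5 (2874 against 2239 to 2479 in the other 9 arrays). The part of that in the Sall1 and Sall3 values was not tested.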

How the data were processed

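Per the labels' protocols, biotin-labelled limb bud RNA was measured on 1-colour Affymetrix arrays, 1 sample each. The authors deposited linear intensity values of 45101 probe sets in 10 arrays, and the submitters' processing notes name GCOS 1.3. The sources used here give no summarization model, scaling target or detection call. The deposited intensities were on a common scale (trimmed means of 276 to 289), so no normalization was added. The number of arrays limits the precision.

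Signals were floored at 1 before log2. After 64 control probe sets were left out, 22519 of 45037 passed the filter on mean log2 signal. Groups were compared across all of them with limma 3.58.1 in R 4.3.3 (lmFit, eBayes with intensity trend, Benjamini-Hochberg at 0.05), which was tested on simulated data first. Single values were also compared by exact permutation over arrays. The platform annotation named 34945 probe sets by 1 symbol, 932 by several and 9160 by none. A gene stood as its brightest tested probe set, with _s_at and _x_at types used only where there was no other. RefSeq tables of GRCm38.p6 gave positions and start windows.

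The rule for named genes took every Sall and Dicer1 probe set, up to 4 called genes per list (or the 2 with the smallest p), and the 5 genes most correlated with each member. The members, lists, tests and the set of 8 arrays were chosen with earlier results of these data known. As a check of pairing, departures from the group mean were correlated between mutant and wild type arrays. Arrays with 1 number gave 0.55, 0.55, 0.71 and 0.32 in numbers 1, 3, 4 and 5 of the 8 arrays. The highest values with another number were 0.54, 0.54, 0.52 and 0.52. Only number 4 thus stood clearly above, and number 5 lay below. In the 10 arrays, numbers 1 to 5 gave 0.43, -0.18, 0.27, 0.67 and 0.41, against 0.38, 0.56, 0.56, 0.52 and 0.52 with another number. The check does not settle whether arrays with 1 number are pairs. No label says what a number marks. Blocked values are given for Sall4, where they change no call, and for the counts over all probe sets or genes. Elsewhere they stand beside a result only where they change a call. No array repeated another.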

Additional observations from a re-analysis of the deposited data

Results flagged for a closer look

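Single arrays stood far from the rest of their group, by the gap to the nearest array relative to the range of the group, in 6 of 36 comparisons. These cover 18 combinations of probe set and group, each with and without number 2, so they are not separate, and the chance rate of about 1 in 20 holds for a single group only. Wild type 5 did so at Sall1 1450489_at with a signal of 408 among 5 wild type arrays, and at Sall3 1452386_at with 355 among both 5 and 4 wild type arrays. It did so also at Dicer1 1427941_at, with 706 among the 4 wild type arrays left without number 2. Mutant 2 stood apart among the 5 mutant arrays at both Dicer1 probe sets, with 360 at 1427941_at and 774 at 1460571_at. No Sall4 or Sall2 value stood apart by this measure, which was taken on linear signals. It was not taken on log2 signals, the scale of the tests, where a low array such as mutant 2 at Sall4 weighs more. The cause was not tested.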

How the results depend on the processing

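All values are log2 fold changes unless given as counts or p. In the 8 arrays the Sall4 value at 1424152_at lay between 0.70 and 0.94 with single arrays left out. It lost its call without both arrays of number 1 (0.88), 3 (0.66), 4 (0.90) or 5 (0.88), with numbers 4 and 5 alone (0.65) and without the filter (0.83, limma adjusted p = 0.0538). In the 10 arrays it was called with number 2 left out (0.83). Sall3 at 1452386_at had -0.045 in the 8 arrays without number 3, 0.61 in numbers 1 and 3 (called) and -0.25 in numbers 4 and 5. In the 10 arrays it had -0.12 without number 3, -0.25 in numbers 4 and 5, and -0.063 to 0.25 with single arrays left out. Sall1 in the 10 arrays turned negative without number 3 (-0.14 at 1437983_at and -0.11 at 1450489_at) or 4 (-0.055 and -0.060), with ranges of -0.059 to 0.25 and -0.060 to 0.17 over single arrays left out. Sall2 stayed near 0: in the 10 arrays 0.018 with quantile normalization, 0.015 without number 3, 0.022 without 5, 0.0097 in 4 and 5, and -0.055 to 0.013 over single arrays left out. In the 8 arrays these were 0.010, 0.032, 0.040, 0.0097 and -0.064 to 0.025. With the replicate block (exchange of signs within pairs), the smallest exact p was 0.125 in the 8 arrays, so the differences of Sall4 from Sall3 (0.65), Sall2 (0.84) and Sall1 (0.57) could not reach the threshold, and an offset of 64 gave 0.42 for Sall1 (exact permutation p = 0.0857). Over single arrays left out these differences ran from 0.54 to 0.75, 0.70 to 0.94 and 0.41 to 0.69. In the 10 arrays they ran from 0.18 to 0.49, 0.25 to 0.71 and 0.18 to 0.47. The other pairs there ran from -0.069 to 0.24 (Sall3 minus Sall2), -0.047 to 0.082 (Sall3 minus Sall1) and -0.24 to 0.044 (Sall2 minus Sall1). The count of probe sets called in the 8 arrays was 378, against 93 to 745 with single arrays left out, 1219 with the replicate block, 2612 with array weights, 25, 23, 36 and 250 without numbers 1, 3, 4 and 5, 812 in numbers 1 and 3, and 0 in numbers 4 and 5 (2132 at an unadjusted p below 0.05). In the 10 arrays 0 were called, and 378 without number 2. With the filter at the 70th percentile Sall4 and Sall3 were not tested. The causes were not tested.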

Other observations

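Genes most like Sall2 over the 10 arrays were the kinase gene Limk1 (r = 0.92), Pcdhb11 (0.90), Ruvbl1 (0.89), Aatk (0.89) and Cd300lf (0.88), and their log2 fold changes in the 8 arrays lay between -0.030 and 0.093. Pcdhb11 ran from 149 to 180 in mutant arrays and from 141 to 181 in wild type arrays, with the groups overlapping.

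Cartilage genes had 1 of 9 tested members called in the 8 arrays, where 2.12% of all genes were called and 1.03% were called as lower. It was Col11a1, a fibrillar collagen of cartilage, which fell (log2 fold change -0.58, SE 0.10, limma adjusted p = 0.0314). It had 498, 993, 453, 535 and 490 in mutant arrays 1 to 5, against 652, 511, 832, 813 and 674 in wild type arrays 1 to 5, the reverse of the order of Sall4 in number 2 as well. Nerve and Schwann cell genes had 1 of 3 tested called on the same background, Gap43, a growth cone gene, at -0.34 (SE 0.070, limma adjusted p = 0.0466). Col11a1 and Gap43 each kept the call in 1 of the 8 fits that left out an array, the one without wild type 5.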
